A study of Mus musculus with 3 samples.

Results

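The 8 genes described here handle iron or break down heme: Hamp, Slc40a1, Slc11a1, Tfrc, Fth1, Ireb2, Hmox1 and Blvrb. They were taken by symbol from the deposited tables, which hold 12880 genes in all, and 7 of the 8 have a row in each of the 3 tables; Hamp has a row in the tables that include 4 h. RNA was sequenced from macrophages of C57BL/6 LysM-GFP mice aged 6 to 8 weeks, whose GFP reporter marks myeloid cells, and the cells were sorted from digested lung as GFP+, Ly6g- and CD64+. Lung injury was induced with nebulized LPS, a bacterial endotoxin, from a 1 mg/ml solution in saline, and the groups are 0 h, 4 h and 24 h. One treatment text covers every sample, so whether the 0 h mice inhaled LPS is not stated, and neither is the number of mice behind a library. Each time point has 1 library, so no difference below has a replicate check, and higher or lower describes these libraries.

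Macrophages recycle the iron of engulfed red cells and withhold iron from microbes. Heme oxygenase opens the heme ring and frees its iron, biliverdin reductases reduce the green product, ferritin stores the iron, and ferroportin exports it. Hepcidin, a peptide hormone made mainly by the liver, binds ferroportin and has it degraded, and iron regulatory proteins adjust the translation and stability of the messenger RNAs of iron genes to the iron in the cell. Bacterial products are known to raise hepcidin and to lower ferroportin.

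Levels are normalized read counts, that is, whole reads divided by a size factor for the library, and folds are plain ratios of them with a 95% exact binomial interval that covers counting error only. In reads, the libraries held 24825976 at 0 h, 20379236 at 4 h and 25135476 at 24 h. Cell type markers shifted between them: transcripts on an alveolar macrophage list made up 4.32% of all reads in the 0 h library, 1.44% at 4 h and 3.03% at 24 h. Those on a classical monocyte list made up 0.485%, 1.90% and 0.489%. At 4 h against 0 h, 16 of 19 measured alveolar macrophage markers were at least 2-fold lower and 10 of 12 monocyte markers at least 2-fold higher. Against 0 h, 9 of the 12 monocyte markers were still at least 2-fold higher at 24 h, beside 4.76% of all genes. Fn1, with 93402 reads at 0 h and 30890 at 24 h, was 3.44-fold lower, which weighs on the summed monocyte share. All 10 neutrophil markers with a ratio were at least 2-fold higher at 4 h, with a share of 0.0217% at 0 h, 0.154% at 4 h and 0.0394% at 24 h, while Ly6g, Elane and Mpo had no row. Of 12 lung epithelial markers, 5 were at least 2-fold higher at 4 h and 2 lower, beside 15.2% and 14.3% of all genes. Their share was 0.0694% at 0 h, 0.0713% at 4 h and 0.0810% at 24 h. Reads of Scgb1a1, on that list, numbered 97, 3133 and 128. Of 12 interstitial macrophage markers, 4 were at least 2-fold higher at 4 h than at 0 h and 5 lower. Their share was 0.128% at 0 h, 0.221% at 4 h and 0.243% at 24 h. Fcgr1, which encodes the sorted antigen CD64, was present in every library, with 2655, 5701 and 3513 reads. It is 1 of 9 pan-macrophage markers. At 4 h against 0 h, 3 of these were at least 2-fold higher and 1 lower, beside 15.2% and 14.3% of all genes. Lower was Mertk, with 11299, 1318 and 3887 reads. The share of the 9 was 0.506% at 0 h, 0.739% at 4 h and 0.562% at 24 h. Reads of Xist, which silences one X chromosome in females, numbered 13705 at 0 h, 4 at 4 h and 1 at 24 h. Those of the Y-linked Ddx3y numbered 4, 3994 and 2357, so the sex of the mice and the time cannot be told apart in comparisons with 0 h. In such bulk samples, fewer cells of a type and less RNA per cell cannot be told apart either. The part of these shifts in the results below was not tested.

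At 4 h against 0 h, 3 of the 8 genes were at least 2-fold higher and none was lower by that size, where 15.2% of all genes were higher and 14.3% lower by the same rule (29.6% either way). The 3 were Hamp, Ireb2 and Slc11a1. The median log2 ratio of the 8 genes was 0.54, against 0.00 for all genes. In the ratio of 24 h over 4 h, Blvrb was at least 2-fold higher and Hamp lower, 2 of 8 beside 14.3% of all genes higher and 17.8% lower (32.1% either way), and the median log2 ratio was -0.21. After recentring on ribosomal protein genes, Slc11a1 and Ireb2 also lay past 2-fold lower in that ratio, each at a log2 ratio of -1.39. Blvrb then fell short of 2-fold, at 0.63. Between 24 h and 0 h none of the 7 genes with a ratio differed by 2-fold. Of all 12310 genes with a ratio, 4.76% were at least 2-fold higher and 8.85% lower (13.6% either way). In that comparison 6 of the 7 lay above 0 on the log2 scale, and all 6 lay below 0 once ratios were recentred on ribosomal protein genes, which shifts them by -0.56; the folds of 24 h over 0 h given below hold for the main scaling.

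With a threshold of 1.5-fold in either direction on plain ratios, by contrast, 5 of the 8 genes passed for 4 h over 0 h beside 49.0% of all genes, none of the 7 for 24 h over 0 h beside 32.4%, and 5 of the 8 for 24 h over 4 h beside 54.5%. With the whole counting interval past 2-fold, 1 of the 8, Hamp, passed for 24 h over 4 h, beside 21.1%. In the authors' deposited table, 2 of the 8 genes, Hamp and Ireb2, had a log2 fold change of at least 1 for 4 h over 0 h, beside 8.86% of all genes higher and 9.02% lower (17.9% either way). These values are drawn toward 0, so fewer genes reach that size. None of the 7 reached it for 24 h over 0 h, beside 0.539% higher and 2.14% lower (2.68% either way). For 24 h over 4 h it left 1 of the 8, Hamp, which was lower, beside 7.26% higher and 10.2% lower (17.4% either way).

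**Figure D1:**
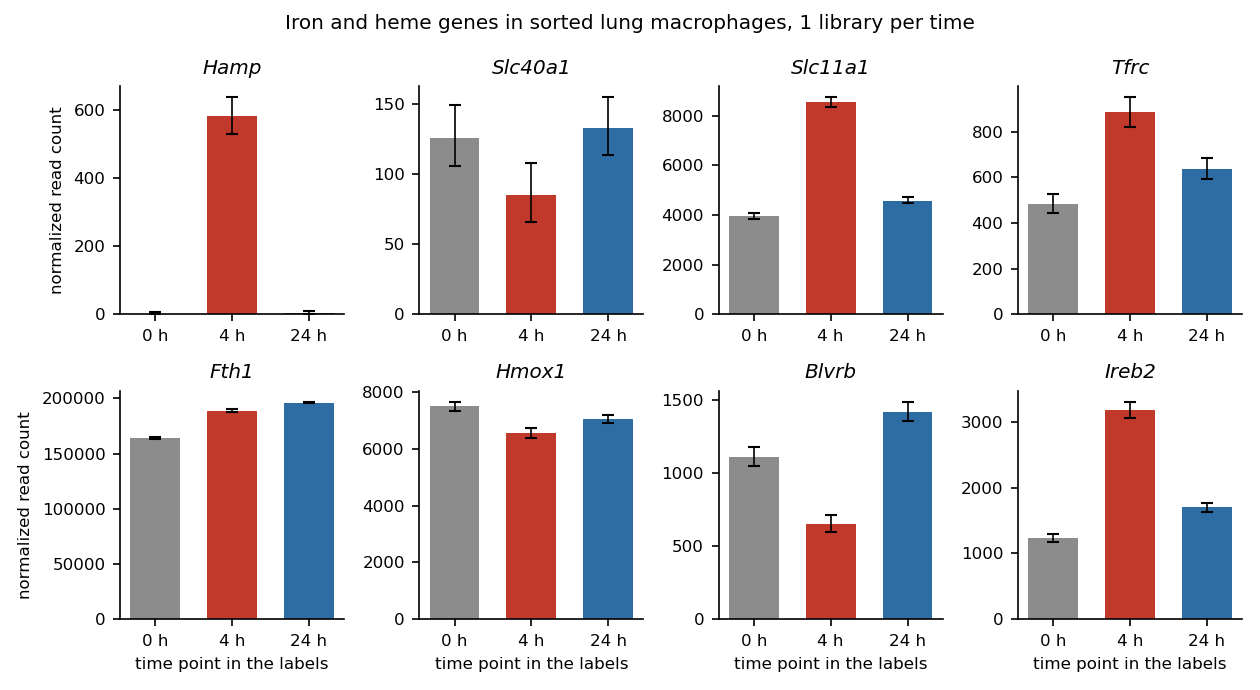
Normalized read count (vertical axes, each from 0) of the 8 genes at 0 h, 4 h and 24 h, 1 library per bar. Whiskers are 95% Poisson intervals for counting error only. Hamp stands out by its 584 normalized counts at 4 h beside 0.934 at 0 h and 3.29 at 24 h.

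Hamp, which encodes hepcidin, was nearly silent at 0 h and 24 h and clearly expressed at 4 h. Its raw reads were 1 at 0 h, 460 at 4 h and 4 at 24 h, or 0.934, 584 and 3.29 normalized counts. The 4 h value was 625-fold that at 0 h, with an interval of 112 to 24749.7 that is wide because it rests on 1 read, and only 3 of 12512 genes had a higher log2 ratio at a pseudocount of 1. The 24 h value was 178-fold lower than that at 4 h (68.9 to 655), and no other of the 12578 genes had a lower log2 ratio. Both of these libraries carry Y-linked transcripts and at most 4 reads of Xist. Listed genes have a mean above 10 over their pair of libraries, and Hamp met this only through its 4 h value. A gene so low in the other library could be listed only with a large ratio, so the ranks above are description alone. With 4 reads at 24 h against 1 at 0 h, a difference between those times was not detectable at this depth. In the authors' deposited table the same changes have log2 values of 2.84 for 4 h over 0 h and -2.68 for 24 h over 4 h, beside log2 ratios of 8.24 and -7.09 at a pseudocount of 1 and of 5.76 and -5.48 at a pseudocount of 10. Per kilobase of annotated exon, the normalized count of Hamp at 4 h exceeded that of 93.2% of genes, and at 0 h that of 2.66%.

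Hamp lies on the minus strand of chromosome 7 from 30942369 to 30944029 (mm10). Its mouse paralog Hamp2 has no row in the tables, and how reads shared by the pair were counted is not given in the sources used here. The promoter is shown because this gene has the widest change of the 8. In liver, the hepcidin promoter is known to respond to IL-6 through a STAT3 site and to BMP signals through a nearby element. The window of 300 bases from RefSeq on GRCm38.p6, chr7:30943980-30944279, runs from 250 bases before the start of transcription to 50 after it, on the minus strand. Capitals mark, in this order, 1 match to GGCGCC, the core of a BMP response element, at -109 to -104, and 1 match to the STAT pattern TTCNNNGAA at -97 to -89.
Hamp promoter: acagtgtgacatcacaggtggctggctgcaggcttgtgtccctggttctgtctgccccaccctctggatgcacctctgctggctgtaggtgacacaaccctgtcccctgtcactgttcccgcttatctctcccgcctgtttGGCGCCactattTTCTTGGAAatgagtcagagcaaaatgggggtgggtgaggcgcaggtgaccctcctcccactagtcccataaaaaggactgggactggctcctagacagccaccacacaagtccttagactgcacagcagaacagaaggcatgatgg
Both strands were searched, and the patterns do not overlap. Of 32851 promoter windows of that length, 8.30% hold the STAT pattern and 11.9% hold GGCGCC. RefSeq windows were found for 6 of the 8 genes, and among the others only Tfrc held either pattern, with 1 GGCGCC. The antioxidant response element TGACNNNGC, in 12.4% of windows, matched none of the windows of these genes. A match of letters is a description and shows no binding.

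Slc40a1, which encodes ferroportin, the only known cellular iron exporter and the target of hepcidin, had few reads throughout. The gene lies on the minus strand of chromosome 1 from 45908070 to 45925594. Its normalized counts were 126 at 0 h, 85.0 at 4 h and 133 at 24 h, from 135, 67 and 162 reads. The 4 h value was 1.48-fold lower than at 0 h (1.10 to 2.02), and that at 24 h 1.57-fold higher than at 4 h (1.17 to 2.11). The log2 ratio of 24 h over 4 h depended on scaling. It was 0.64 in the main scaling, 0.16 when recentred on ribosomal protein genes and 0.96 when scaled by total reads. The 24 h and 0 h values differed by less than counting error (1.06-fold, 0.835 to 1.34). Slc40a1 was thus lowest in the library in which Hamp was highest, by a margin that stayed under 2-fold. Whether Hamp bears on Slc40a1 was not tested, and ferroportin protein, on which hepcidin acts, was not measured. Per kilobase of annotated exon Slc40a1 exceeded 14.5% of genes at 0 h, 12.8% at 4 h and 17.8% at 24 h, low at every time.

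Slc11a1 encodes NRAMP1, a metal transporter that pumps iron and manganese out of the phagosome. C57BL/6 mice are known to carry a loss-of-function allele of this gene, so its transcript does not stand for transport activity in this strain. The gene lies on the plus strand of chromosome 1 from 74375203 to 74386051. It had normalized counts of 3942 at 0 h, 8548 at 4 h and 4580.3 at 24 h, so 4 h stood apart and 24 h lay 1.16-fold above 0 h (1.12 to 1.21). The 4 h value was 2.17-fold that at 0 h (2.09 to 2.25) and that at 24 h 1.87-fold lower than that at 4 h (1.80 to 1.93). Scaling by total reads put the log2 ratio of 4 h over 0 h at 0.96, short of 2-fold. Its relative Slc11a2, which encodes DMT1 and carries iron out of endosomes, moved alike at 4 h, with 1742 normalized counts at 4 h against 708 at 0 h, 2.46-fold (2.25 to 2.69). Some exons of Slc11a2 overlap the predicted gene Gm5475 on the other strand, and reads from the pair cannot be told apart without strand. Slc11a1 stayed the more abundant of the pair, and the number of its reads per Slc11a2 read was 5.57 at 0 h, 4.91 at 4 h and 7.33 at 24 h.

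Tfrc, the transferrin receptor that brings iron into cells, lies on the plus strand of chromosome 16 from 32608896 to 32632794 and had normalized counts of 483 at 0 h, 883 at 4 h and 638 at 24 h. At 4 h it was 1.83-fold higher than at 0 h (1.63 to 2.05), short of 2-fold, and at 24 h 1.39-fold lower than at 4 h (1.25 to 1.54) and 1.32-fold higher than at 0 h (1.18 to 1.48). Its level per kilobase exceeded that of 38.8% of genes at 0 h, 52.7% at 4 h and 48.0% at 24 h, which puts it in the middle of the order. Its ligand transferrin, encoded by Trf, went the other way and was abundant, with normalized counts of 48677 at 0 h, 15371 at 4 h and 33566 at 24 h. Trf was 3.17-fold lower at 4 h than at 0 h (3.10 to 3.23) and 2.18-fold higher at 24 h than at 4 h (2.14 to 2.23).

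Fth1, the ferritin heavy chain, which oxidizes iron as it is stored, was among the most abundant transcripts at every time. Per kilobase of annotated exon it exceeded at least 99.9% of genes in each library, with the exons of all GENCODE transcripts joined, which for Fth1 run beyond the counted gene and so understate its level. Its normalized counts were 164337 at 0 h, 188935 at 4 h and 196172 at 24 h, which makes it 1.15-fold higher at 4 h than at 0 h (1.14 to 1.16) and 1.19-fold higher at 24 h than at 0 h (1.19 to 1.20). Between 24 h and 4 h it differed by 1.04-fold (1.03 to 1.05), a direction that turned when ratios were recentred on ribosomal protein genes. The gene lies on the plus strand of chromosome 19 from 9982646 to 9985111. The light chain gene Ftl1, whose product helps iron form a mineral core, had a different pattern. Its normalized counts were 65641 at 0 h, 28355 at 4 h and 69001 at 24 h, so that 4 h was 2.31-fold lower than 0 h (2.28 to 2.35) and 24 h 2.43-fold higher than 4 h (2.40 to 2.47). The reads of Fth1 per read of Ftl1 were 2.50 at 0 h (2.48 to 2.53), 6.66 at 4 h (6.57 to 6.76) and 2.84 at 24 h (2.82 to 2.87). These ratios within a library do not depend on scaling. Ferritin chains have pseudogenes in the annotation, none of which has a row in the tables, and Ftl1 exons overlap the annotated Gm10252 on the other strand and Gm22133, so the share of reads from such copies is uncertain.

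**Figure D2:**
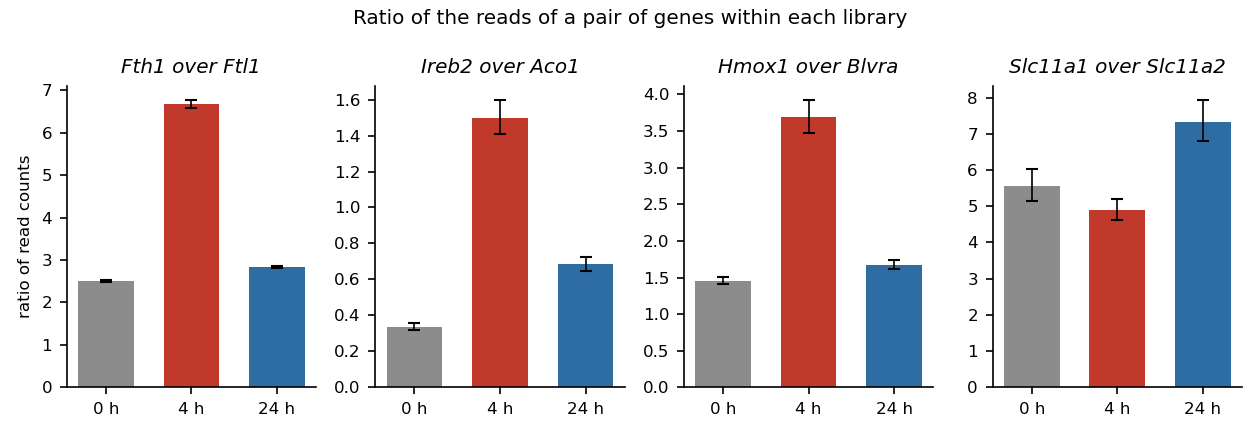
Reads of the first gene per read of the second within each library (vertical axes from 0) for 4 pairs chosen after their values were seen. Whiskers are 95% binomial counting intervals, and there is 1 library per bar. Fth1 over Ftl1, Ireb2 over Aco1 and Hmox1 over Blvra are highest at 4 h, while Slc11a1 over Slc11a2 is lowest there at 4.91.

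Ireb2 encodes IRP2, an iron regulatory protein that accumulates when iron is scarce. The gene lies on the plus strand of chromosome 9 from 54863755 to 54912534. Its normalized counts were 1233 at 0 h, 3181 at 4 h and 1698 at 24 h. The 4 h value was 2.58-fold that at 0 h (2.41 to 2.76), and the 24 h value was 1.87-fold lower than that at 4 h (1.77 to 1.99) and 1.38-fold higher than at 0 h (1.29 to 1.48). Ireb2 thus stood highest at 4 h, and its level per kilobase exceeded that of 50.5% of genes at 0 h, 72.6% at 4 h and 60.6% at 24 h. Aco1, which encodes the other such protein, IRP1, was 1.72-fold lower at 4 h than at 0 h (1.62 to 1.82), with 2122 normalized counts at 4 h against 3642 at 0 h. Reads of Ireb2 per read of Aco1 were 0.338 at 0 h, 1.499 at 4 h and 0.684 at 24 h, so the order of the pair in reads turned at 4 h. Fbxl5, the iron-sensing ubiquitin ligase subunit that directs the breakdown of IRP2, was higher too, at 9019 normalized counts at 4 h against 3991 at 0 h, 2.26-fold (2.18 to 2.35), and was 2.36-fold lower at 24 h than at 4 h (2.28 to 2.45). IRP2 is controlled mainly through protein breakdown, which these data do not measure.

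Known targets of these proteins are among the genes described here. An iron-responsive element is a hairpin with a loop of 6 bases, and a protein bound before the coding sequence blocks translation, while one bound behind it keeps the messenger RNA from decay. A search was made for C, any 5 bases, and the loop CAGTG plus any base, where the 5 bases before the loop pair with the 5 after it, G with T allowed. It was run on the sense strand of GENCODE M21 transcripts (GRCm38) and matched before the coding sequence in 31 of 20899 genes (0.148%), Fth1, Ftl1 and Slc40a1 among them, and behind it in 129 of 21685 genes (0.595%), where Tfrc held 4. Hamp, Slc11a1, Hmox1, Blvrb and Ireb2 held no match, and neither did Slc11a2, Aco1, Steap4 and Blvra. Matches were not looked up for the other genes described here. The pattern is strict, so a gene without a match may still hold an element. The matches are shown because the ferritin, ferroportin and transferrin receptor transcripts are known to be bound there, and capitals mark the loop.
Fth1: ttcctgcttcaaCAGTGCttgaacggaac
Ftl1: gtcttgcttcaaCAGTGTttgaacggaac
Slc40a1: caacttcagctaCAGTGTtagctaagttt
Tfrc, site at 3327: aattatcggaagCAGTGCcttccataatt
Tfrc, site at 3706: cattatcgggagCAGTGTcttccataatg
Tfrc, site at 3771: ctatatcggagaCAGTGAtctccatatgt
Tfrc, site at 3818: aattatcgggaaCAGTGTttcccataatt
Sites of Tfrc are named by the first loop base in its transcript. The stems of both ferritin chains share the 5 bases ttcaa. Whether the elements bear on the transcript levels was not tested. Among the genes looked up, Tfrc, with matches behind the coding sequence, was higher at 4 h than at 0 h. Of the 3 with a match before it, Fth1 was higher and Ftl1 and Slc40a1 lower. Binding by either protein, and translation, were not measured.

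Hmox1, the stress-inducible heme oxygenase, differed by under 2-fold between all 3 libraries. Its normalized counts were 7495 at 0 h, 6564 at 4 h and 7054 at 24 h, 1.14-fold lower at 4 h than at 0 h (1.10 to 1.18). At 24 h the level was 1.07-fold higher than at 4 h (1.04 to 1.11) and 1.06-fold lower than at 0 h (1.03 to 1.10). The first of these directions turned when recentred on ribosomal protein genes, the second when scaled by total reads. The gene lies on the plus strand of chromosome 8 from 75093618 to 75100593. Its level per kilobase exceeded that of 98.1% of genes at 0 h, 97.4% at 4 h and 98.0% at 24 h. Hmox2, the constitutive form, had 1863, 1756 and 1892 normalized counts at the 3 times.

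Blvrb, a biliverdin reductase with flavin reductase activity, dipped at 4 h. The gene lies on the plus strand of chromosome 7 from 27452418 to 27465981. Its normalized counts were 1110.4 at 0 h, 654 at 4 h and 1419 at 24 h. At 4 h it was 1.70-fold lower than at 0 h (1.53 to 1.89) and at 24 h 2.17-fold higher than at 4 h (1.97 to 2.40) and 1.28-fold higher than at 0 h (1.19 to 1.38). Its level per kilobase exceeded that of 77.3% of genes at 0 h, 64.4% at 4 h and 82.2% at 24 h. Recentring on ribosomal protein genes, which shifts log2 ratios of 24 h over 4 h by -0.49, put the log2 ratio of that comparison at 0.63, short of 2-fold. Blvra, the main biliverdin reductase of adult tissue, dipped further, to 1778 normalized counts at 4 h against 5143 at 0 h, 2.89-fold lower (2.73 to 3.07), and at 24 h was 2.37-fold higher than at 4 h (2.23 to 2.52). Reads of Hmox1 per read of Blvra were 1.46 at 0 h, 3.69 at 4 h and 1.67 at 24 h. Both reductases were thus lowest at 4 h, while the oxygenases before them in the pathway differed by under 2-fold.

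**Figure D3:**
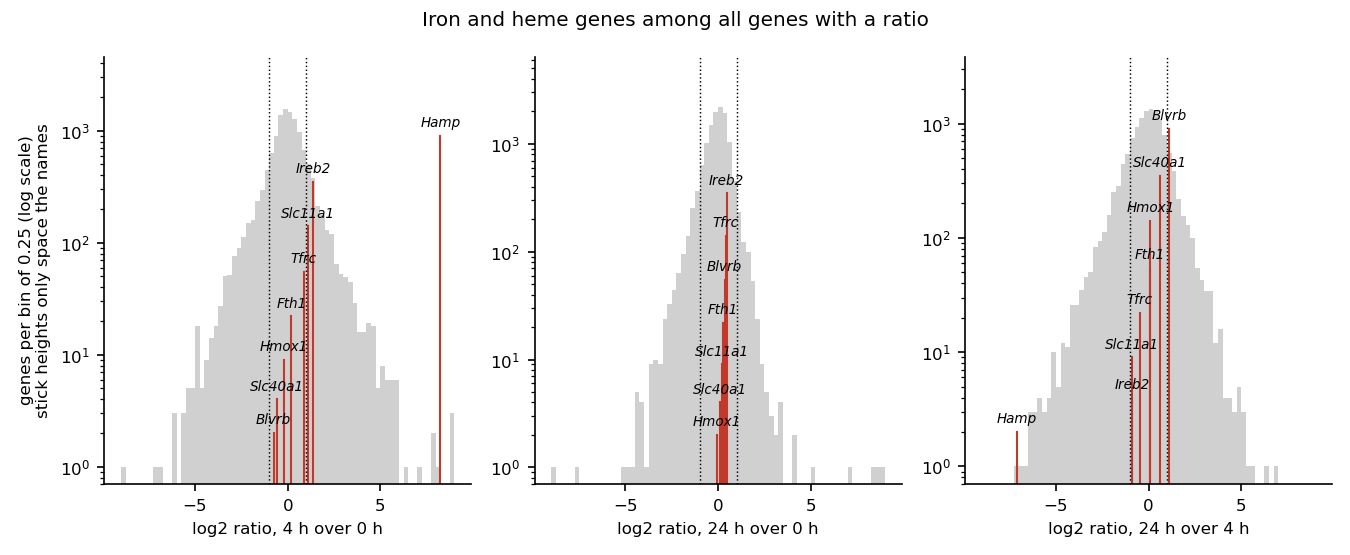
Log2 ratio of normalized counts (horizontal axis, pseudocount 1, values beyond 9 in the end bins) of all genes as grey bars on a log scale, with the 8 genes as red sticks whose height only spaces their names; dotted lines mark 2-fold. Hamp lies at 8.24 at 4 h over 0 h and at -7.09 at 24 h over 4 h, while the others lie between -0.90 and 1.37 in the 3 panels.

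Among all genes, the log2 ratio of 4 h over 0 h stood above that of 90.5% of genes for Ireb2, 87.0% for Slc11a1 and 82.6% for Tfrc, and above that of only 18.8% for Blvrb. For 24 h over 4 h the order was turned, with 88.4% for Blvrb and 19.7% for Ireb2. The middle of the distribution held Fth1 and Hmox1, at 59.6% and 40.0% for 4 h over 0 h.

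Genes with the nearest pattern were sought among 8444 named genes with at least 100 normalized counts in every library, by the distance between their pairs of log2 ratios to 0 h. With 3 libraries this is a description of shape alone. Nearest to Hamp was Vcan, a proteoglycan on the monocyte list, at a distance of 1.14 with 247, 55128 and 1134 normalized counts at 0, 4 and 24 h, followed by F13a1 at 2.64. Hamp itself falls under that minimum at 0 h and 24 h, and genes as low as Hamp at those times could not enter, so its distances say nothing of how rare its pattern is. Ireb2 lay 0.01 from Bclaf1 and 0.03 from Ncf4, and Slc11a1 0.02 from Pla2g4a and from Ythdc1. Blvrb lay 0.01 from Bcat2 and 0.02 from Tmem14c, and Tfrc 0.02 from Kdr and from Ppil4. Slc40a1 was nearest to Chchd3 and Socs2, Fth1 to Enox2 and Pdhx, and Hmox1 to Napa and Chmp7, each within 0.03.

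A list of 70 other iron and heme genes gave the surroundings, of which 60 had a row in the tables. At 4 h against 0 h, 15 of 59 were at least 2-fold higher and 11 lower (44.1% either way), beside 15.2% of all genes higher, 14.3% lower and 29.6% either way, and the median log2 ratio was 0.03, against 0.00 for all genes. In the ratios of 24 h over 0 h, 6 of 58 were higher and 5 lower, beside 4.76% and 8.85% of all genes. In those of 24 h over 4 h, 12 of 60 were higher and 16 lower, beside 14.3% and 17.8% of all genes. The split in the later comparisons moved with scaling. Recentring on ribosomal protein genes gave 5 higher and 14 lower for 24 h over 0 h. For 24 h over 4 h it gave 3 higher and 22 lower, and scaling by total reads gave 16 higher and 10 lower. Either scaling shifts all genes alike, so the shares above do not apply to these counts. Shares over all genes under these scalings were not computed. Hp, Lcn2, Ltf and Cd163 also stand on a list of cell type markers, whose shifts are given above.

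**Figure D4:**
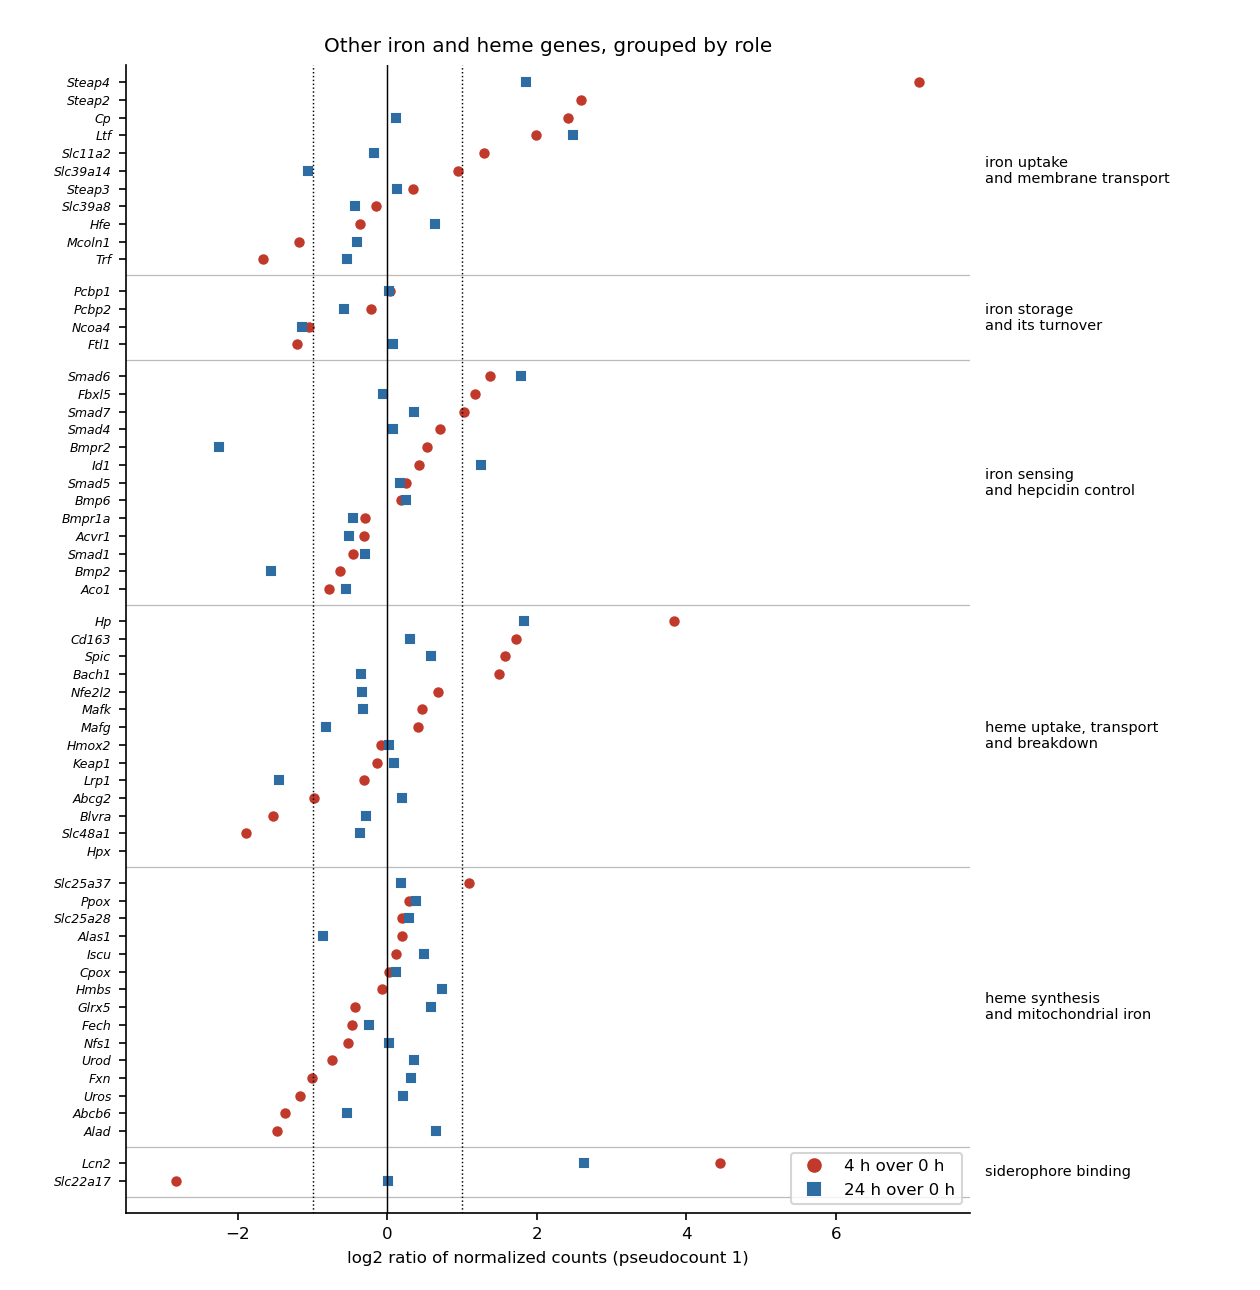
Log2 ratio of normalized counts (horizontal axis, pseudocount 1) of 59 of the 60 other iron and heme genes in the tables, 1 gene per row, grouped by role; red circles are 4 h over 0 h and blue squares 24 h over 0 h, and dotted lines mark 2-fold. Steap4 lies furthest to the right, at 7.12 for 4 h over 0 h, and at 1.85 for 24 h over 0 h.

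Among genes of iron uptake and membrane transport, 5 of 11 were at least 2-fold higher at 4 h than at 0 h and 2 lower, where 15.2% of all genes were higher and 14.3% lower. Steap4, a metalloreductase induced in inflammation, was counted 9 times at 0 h, 1028 times at 4 h and 40 times at 24 h, and its normalized count was 155-fold higher at 4 h than at 0 h (81.5 to 341). It was still 3.91-fold higher at 24 h than at 0 h (1.87 to 9.17) and 39.7-fold lower than at 4 h (28.95 to 55.9). Steap2, of the same family, had 5, 26 and 2 reads, too few to size its change well. Cp, the copper-containing iron oxidase ceruloplasmin, was 5.38-fold higher at 4 h than at 0 h (4.31 to 6.77), with 503 normalized counts at 4 h against 93.4 at 0 h. On the lower side at 4 h, beside Trf, was Mcoln1, a channel that releases iron from lysosomes, 2.28-fold (2.08 to 2.49). Set against 0 h, the 24 h library had 5.88-fold more Ltf, which encodes lactoferrin (3.46 to 10.7, from 107 reads at 24 h against 16 at 0 h), and Slc39a14, a carrier of zinc and iron, was 2.10-fold lower (1.95 to 2.26). Hfe, the hemochromatosis gene, was 2.01-fold higher at 24 h than at 4 h (1.89 to 2.13).

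Of the 4 storage genes, 2 were at least 2-fold lower at 4 h than at 0 h and none higher, beside 14.3% of all genes lower and 15.2% higher. They were Ftl1, described above, and Ncoa4, the receptor that delivers ferritin for breakdown in lysosomes. Ncoa4 had normalized counts of 1985 at 0 h, 958 at 4 h and 895 at 24 h, so it was 2.07-fold lower at 4 h (1.91 to 2.25) and 2.22-fold lower at 24 h (2.06 to 2.39) than at 0 h. Ftl1, in contrast, was 1.05-fold higher at 24 h than at 0 h (1.04 to 1.06).

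Of 13 genes of iron sensing and hepcidin control, 3 (23.1%) were at least 2-fold higher at 4 h than at 0 h and none lower, a share higher that is near the 15.2% of all genes, of which 14.3% were lower. They were Smad6 and Smad7, which inhibit BMP signalling, and Fbxl5, described above. Smad6 was 2.66-fold higher (1.61 to 4.50), on 49 reads at 4 h and 25 at 0 h. By 24 h Smad6 was 3.55-fold higher than at 0 h (2.28 to 5.75) and Id1, a BMP target, 2.39-fold higher (2.09 to 2.73). Bmpr2, a BMP receptor, was 4.77-fold lower at 24 h than at 0 h (4.18 to 5.45), and Bmp2 was 3.18-fold lower, on 10 reads at 24 h against 28 at 0 h. Bmpr2 was also 6.91-fold lower at 24 h than at 4 h (6.07 to 7.89). Bmp6, the main inducer of hepcidin in liver, had 31, 26 and 42 reads at 0, 4 and 24 h, with no difference beyond counting error.

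Among genes of heme uptake, transport and breakdown, 4 of 13 were at least 2-fold higher at 4 h than at 0 h and 2 lower, beside 15.2% and 14.3% of all genes. Hp, haptoglobin, which binds free hemoglobin, had normalized counts of 2039.5 at 0 h, 29101 at 4 h and 7262 at 24 h. It was 14.3-fold higher at 4 h than at 0 h (13.7 to 14.9), 3.56-fold higher at 24 h than at 0 h (3.40 to 3.73) and 4.01-fold lower than at 4 h (3.91 to 4.11). Cd163, the receptor for the complex of haptoglobin and hemoglobin, was 3.31-fold higher (2.54 to 4.35) from a low level, with 195 reads at 4 h against 80 at 0 h. Bach1, a repressor of Hmox1 that heme inactivates, was 2.81-fold higher at 4 h than at 0 h (2.72 to 2.92) and 3.602-fold lower at 24 h than at 4 h (3.47 to 3.74). Nfe2l2, which encodes the activator NRF2, was 1.59-fold higher at 4 h than at 0 h (1.56 to 1.63), short of 2-fold. Both this activator and this repressor of Hmox1 were thus higher in the library in which Hmox1 itself was 1.14-fold lower. Slc48a1, which moves heme from the phagolysosome into the cytosol, was 3.72-fold lower at 4 h than at 0 h (3.47 to 3.99) and 2.89-fold higher at 24 h than at 4 h (2.70 to 3.10). Lrp1, a receptor for heme bound to hemopexin among other ligands, was 2.74-fold lower at 24 h than at 0 h (2.70 to 2.78).

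Hemoglobin transcripts differed between the libraries in which these genes were read. Reads of the adult beta-globin gene listed as Beta-s numbered 50 at 0 h, 802 at 4 h and 2025 at 24 h. Its log2 ratios were 4.42 for 4 h over 0 h and 5.13 for 24 h over 0 h. The authors' deposited log2 fold changes were 2.69 and only 0.26, a gap that was not examined. Alas2, the erythroid heme synthesis enzyme, had 5, 88 and 128. Of 12 erythroid markers 3 had a row, the third being Tspan33 with 58, 21 and 81 reads, and Slc4a1 and Klf1 were among those with none. Together the 3 made up a share of 0.000455% at 0 h, 0.00447% at 4 h and 0.00889% at 24 h. Whether this bears on the heme genes was not tested.

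Of 16 genes of heme synthesis and mitochondrial iron, 2 were at least 2-fold higher at 4 h than at 0 h and 4 lower, of which the first is near the 15.2% of all genes that were higher, while 14.3% were lower. Slc25a37, the mitochondrial iron importer mitoferrin 1, was 2.13-fold higher (1.98 to 2.29). Alad, an early enzyme of heme synthesis, was 2.82-fold lower (2.04 to 3.96) and Abcb6, a porphyrin transporter, 2.60-fold lower (2.06 to 3.32). None of the 16 passed 2-fold at 24 h against 0 h, beside 13.6% of all genes, and the most abundant, Alas1, the first enzyme of the pathway, had 5630.4 normalized counts at 24 h against 10246 at 0 h. For 24 h over 4 h, beside 14.3% of all genes higher and 17.8% lower, 5 were higher, led by Alad at 4.45-fold (3.28 to 6.16) and Uros at 2.61-fold (2.11 to 3.25), and 1, Alas1, was lower, 2.07-fold (2.01 to 2.14).

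Of the genes that handle siderophores, the iron carriers of bacteria, Lcn2 and Slc22a17 had rows and lay on opposite sides of their 0 h levels at 4 h. Lcn2, lipocalin 2, which captures siderophores, had normalized counts of 158 at 0 h, 3481 at 4 h and 979 at 24 h, 22.1-fold higher at 4 h than at 0 h (18.9 to 25.9), 6.20-fold higher at 24 h than at 0 h (5.27 to 7.33) and 3.56-fold lower at 24 h than at 4 h (3.32 to 3.81). Slc22a17, described as a receptor for lipocalin 2, had 531 at 0 h, 73.6 at 4 h and 532 at 24 h, 7.22-fold lower at 4 h than at 0 h (5.50 to 9.63). Its levels at 24 h and 0 h differed by less than counting error (1.00-fold, 0.894 to 1.12).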

How the data were processed

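Per the labels, 1 RNA library was made per time point. The deposited signal values are read counts that the authors divided by a size factor within each table's 2 libraries; whole reads were recovered for 100% of values within 0.02 reads. The deposited log2 fold changes are shrunken. The submitters' processing notes name DESeq2 and mm10; the sources used here give no aligner, counter or annotation. Tables list genes with a mean above 10 over their pair. The first column of the table of 0 h and 24 h is headed 4 h; since its heading and its table disagree, this 1 column was left out, and 0 h levels were read from the table that pairs 0 h with 4 h. The authors' deposited log2 fold changes of the table of 0 h and 24 h had the sign of 24 h over 0 h in 851 of 851 genes past 2-fold in both ratios of 24 h. Its 20 repeated rows were dropped, which left 12618 genes, of which 12310 had a 0 h level and so a ratio. Shares of all genes by plain ratio for 24 h over 0 h cover those 12310. The others reached a mean above 10 beside 24 h but not beside 4 h, so the share higher may be understated. File starts count from 0 (1 below RefSeq in 6046 of 11517 genes) and were raised by 1.

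Library size factors, the median of ratios across 12451 genes, were 1.07 at 0 h, 0.788 at 4 h and 1.22 at 24 h. Intervals are Clopper-Pearson, 95%. They cover counting error alone, since the labels mention no molecular identifiers that would separate copies made by PCR. No test was run and no p-value is given, since 1 library per time leaves no residual degrees of freedom. Genes at least 2-fold changed were counted. All 8 genes are named; in each role group and comparison the 2 genes furthest up and down past 2-fold, or the most abundant, are named, beside 7 fixed genes. Cp, Slc11a2, Smad7, Hmox2, Bmp6 and the pairs of genes were named after their values were seen. One gene that the rule names is not reported here by name. The 8 genes and the lists were chosen with earlier results of these data known. Ratios were tested on simulated reads. Python 3.11.15, pandas 2.3.3 and SciPy 1.17.1 were used.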

Additional observations from a re-analysis of the deposited data

How the results depend on the processing

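The 8 genes gave 23 log2 ratios, recomputed under up to 5 alternatives. None of those past 2-fold changed direction, and 9 of 108 values changed sign, all in ratios under 2-fold. A pseudocount of 10 in place of 1 brought the log2 ratio of Hamp to 5.76 for 4 h over 0 h and to -5.48 for 24 h over 4 h, since its 0 h and 24 h levels lie below that pseudocount, and the authors' deposited values were 2.84 and -2.68. At 24 h over 0 h, recentring on ribosomal protein genes (a shift of -0.56) turned Slc40a1, Slc11a1, Tfrc, Fth1, Blvrb and Ireb2 below 0, and at 24 h over 4 h (-0.49) it turned Fth1 and Hmox1 below 0; scaling by total reads shifted log2 ratios by -0.16 at 4 h over 0 h, 0.17 at 24 h over 0 h and 0.32 at 24 h over 4 h and turned Hmox1 above 0 at 24 h over 0 h. At 1.5-fold, 5 of the 8 genes passed for 4 h over 0 h, beside 49.0% of all genes, and 5 for 24 h over 4 h, beside 54.5%. In the last comparison 1 passed by the log2 fold changes in the authors' deposited table and 1 with its whole counting interval, Hamp in either case. The authors' deposited fold changes passed 16 of 59 other iron and heme genes for 4 h over 0 h, beside 17.9% of all genes. They passed 4 of 58 for 24 h over 0 h, beside 2.68%, and 14 of 60 for 24 h over 4 h, beside 17.4%. For 24 h over 0 h, 17 of these 58 genes passed at 1.5-fold, beside 32.4% of all genes. In that comparison 19 passed after recentring, and 7 among genes averaging 100 normalized counts or more. No share over all genes was computed for these last 2 settings. The authors' own size factors could not be tried for 24 h over 0 h, where the column of the earlier library was not used. No paired analysis was possible because each time point has 1 library, and no replicate could be left out. Depth limits Hamp at 0 h and 24 h, Steap2, Bmp2 and Ltf, which rest on few reads.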
